A study of Arabidopsis thaliana with 12 samples.

Results

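PYE (POPEYE, locus AT3G47640) was read with 1 probe set, the only one that the platform annotation pairs with this gene, across 6 groups of 2 arrays. It is 1 of 13286 loci with a named probe set on the array. Per the labels, the RNA came from shoots or roots of 15-day-old Arabidopsis thaliana seedlings, grown for 10 days before treatment and for 5 more days on agar washed free of contaminating metals, and taken 3 h after the lights came on. In each organ the groups were the irt1 mutant (allele irt1-2, also called pam42 in the series title) with 10 µM Fe-HBED, wild-type Col-0 without Fe, and wild-type Col-0 with 10 µM Fe-HBED. Fe-HBED is a soluble Fe chelate, and IRT1 carries most of the ferrous Fe that enters a root from the soil. A single irt1 allele was used, and irt1 without Fe is not analysed here.

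PYE is a transcription factor of the basic helix-loop-helix (bHLH) family. It is known from Arabidopsis roots, where its transcript accumulates when Fe is short and where it restrains genes of Fe movement and storage, so that plants without it tolerate Fe shortage poorly. PYE pairs with bHLH factors of subgroup IVc, such as ILR3. Some of these are themselves marked for breakdown by BTS, a hemerythrin E3 ligase like BTSL1 and BTSL2. The related factor bHLH121 (URI) acts with subgroup IVc above PYE and above the subgroup Ib factors.

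The values are the authors' deposited log2 levels after RMA, an array summary with quantile normalisation, rounded to 1 decimal, so that a difference of group means moves in steps of 0.05. Differences were tested with limma in a model of all 12 arrays, and a probe set was called at an adjusted p under 0.05 over the 22746 non-control probe sets. Adjusted p-values and standard errors (SE) below come from that model, and each SD is over both arrays of its group. The labels call the replicates biological without saying whether they came from separate plates or sowings, so p-values measure the spread between these arrays. The tissue labels held for the listed markers. In all 3 shoot groups against their root groups, the 3 measured shoot markers (LHCB4.3, PSAN and RCA) were called higher and the 4 measured root markers (EXPA7, EXPA18, XTH26 and AT3G01190) lower. The array of irt1 shoot replicate 1 stood apart in an RNA integrity control, with a GAPDH 3' minus 5' log2 difference of 1.6 against 0.7 to 1 on the other 11 arrays. That array was also the highest in both actin controls, at 3.7 against 2.7 to 3.6 and at 1.9 against 1 to 1.7. The PYE contrasts and the regulator calls in irt1 shoots that rest on it are given with and without it.

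In shoots, PYE stood at 7.2 and 6.9 in irt1 with Fe, at 7.3 and 7.4 in wild type without Fe, and at 5.1 on both arrays of wild type with Fe. Both irt1 and Fe-deficient wild type were well above Fe-supplied wild type, and their arrays did not overlap with it. In roots, PYE stood at 6.0 and 5.8 in irt1 with Fe, at 6.7 and 6.8 in wild type without Fe, and at 5.2 on both arrays of wild type with Fe. The 3 root groups did not overlap, and irt1 lay between the wild-type groups. These are levels of whole organs, in which more cells with the transcript and more transcript per cell cannot be told apart.

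**Figure D1:**
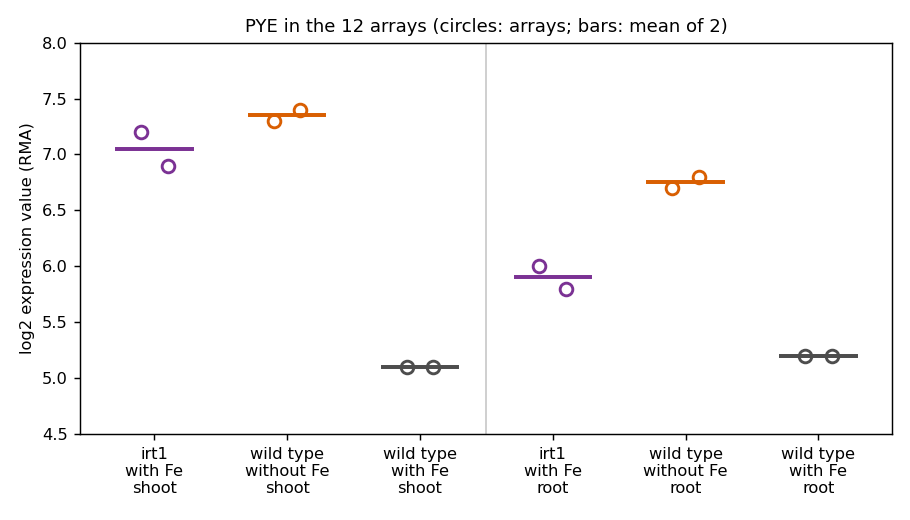
PYE level (log2 RMA value, vertical axis) on each of the 12 arrays; circles are arrays, bars the mean of 2, and shoots are left of the line and roots right of it. In shoots irt1 with Fe and wild type without Fe lie between 6.9 and 7.4, against 5.1 for wild type with Fe; in roots irt1 lies at 5.8 and 6.0, wild type without Fe at 6.7 and 6.8 and wild type with Fe at 5.2.

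Loss of IRT1 was asked about first, in plants that were all supplied with Fe. PYE rose in irt1 shoots, with a mean of 7.05 ± 0.21 against 5.10 ± 0.00 in wild-type shoots (SD, n = 2 each). The log2 difference was 1.95 ± 0.12 (SE), a 3.86-fold rise with a 95% interval of 3.21- to 4.66-fold (limma adjusted p = 3.94e-06). In this comparison 1.93% of probe sets were called higher, and 22 probe sets had a higher fold change than PYE. The call of the 12-array model was lost when only the groups compared were fitted (limma adjusted p = 0.215). Without irt1 shoot replicate 1, whose RNA integrity control stood apart, the log2 difference was 1.80 and remained called (limma adjusted p = 7.17e-05).

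PYE also rose in irt1 roots, but to a smaller extent. Its mean was 5.90 ± 0.14 in irt1 roots and 5.20 ± 0.00 in wild-type roots with Fe (SD, n = 2 each). The log2 difference of 0.70 ± 0.12 (SE) is a 1.62-fold rise with a 95% interval of 1.35- to 1.96-fold (limma adjusted p = 0.00913). Of all probe sets 1.88% were called higher, and 351 had a higher fold change. With only the groups compared fitted, PYE was not called here either (limma adjusted p = 0.116). By the number of alternative analyses that lost it (5 of 13), this call is the least secure of the main ones. It was lost without wild-type root replicate 1 or replicate 2 (limma adjusted p = 0.0743 and 0.0791) and without irt1 root replicate 1 (0.112), and when the root arrays were fitted alone (0.0564), at log2 differences of 0.60 to 0.70.

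Withdrawal of Fe from wild type was asked about next. In shoots PYE rose to 7.35 ± 0.07 without Fe, against 5.10 ± 0.00 with Fe (SD, n = 2 each). The log2 difference was 2.25 ± 0.12 (SE), a 4.76-fold rise with a 95% interval of 3.95- to 5.73-fold (limma adjusted p = 7.69e-07). Among all probe sets 2.67% were called higher here, and 32 had a higher fold change than PYE. This call too was lost when only the groups compared were fitted (limma adjusted p = 0.0733). Leaving out any 1 of the 4 arrays gave log2 differences of 2.2 to 2.3, all called.

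In roots PYE rose to 6.75 ± 0.07 without Fe, against 5.20 ± 0.00 with Fe (SD, n = 2 each). The log2 difference was 1.55 ± 0.12 (SE), a 2.93-fold rise with a 95% interval of 2.43- to 3.53-fold (limma adjusted p = 2.04e-05). Of all probe sets 2.69% were called higher, and 92 had a higher fold change. A fit of only the groups compared lost the call (limma adjusted p = 0.0908). With 1 array left out the log2 difference stayed between 1.5 and 1.6 and was called each time. The irt1 and Fe-withdrawal comparisons of an organ share the same 2 arrays of Fe-supplied wild type, so their values are not independent of each other.

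Because those comparisons share controls, irt1 was set directly against wild type without Fe. In roots PYE was lower in irt1, at 5.90 ± 0.14 against 6.75 ± 0.07 in wild type without Fe (SD, n = 2 each). The log2 difference was -0.85 ± 0.12 (SE), that is 0.555-fold (limma adjusted p = 0.00626), where 0.774% of probe sets were called lower. With only the groups compared fitted, it was not called (limma adjusted p = 0.218). The call was lost without wild-type Fe-deficient root replicate 2 (log2 difference -0.80, limma adjusted p = 0.0733) or irt1 root replicate 2 (-0.75, 0.0762), and when the root arrays were fitted alone (0.0819).

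In shoots the same comparison gave 7.05 ± 0.21 in irt1 and 7.35 ± 0.07 in wild type without Fe (SD, n = 2 each). This log2 difference of -0.30 ± 0.12 (SE) was not called (limma adjusted p = 0.427), and its 95% interval ran from -0.57 to -0.03. A level of PYE in irt1 shoots as low as 0.674-fold of that in Fe-deficient shoots is therefore inside the interval. Here 0.409% of probe sets were called in either direction. Without irt1 shoot replicate 1 the log2 difference was -0.45 (limma adjusted p = 0.272).

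**Figure D2:**
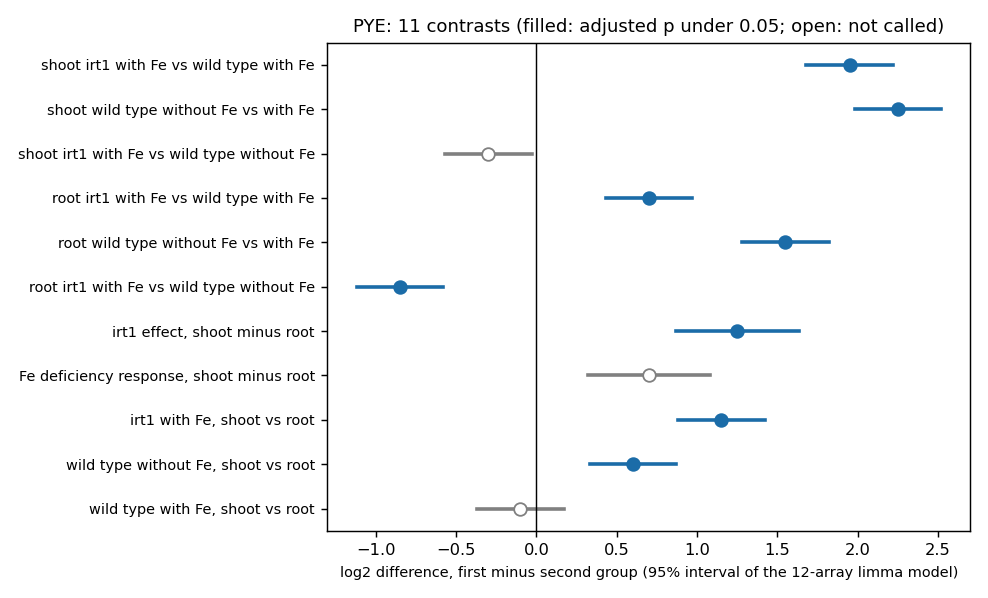
Log2 differences of PYE (points, horizontal axis) with 95% intervals (bars) for the 11 planned contrasts, each the first-named group minus the second; filled points were called and open points were not. Both irt1 and Fe withdrawal gave positive differences in each organ, 1.95 and 2.25 in shoots and 0.70 and 1.55 in roots.

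The difference between organs was tested as such. The effect of irt1 on PYE was larger in shoots than in roots, by a log2 of 1.25 ± 0.17 (SE; limma adjusted p = 0.00374), where 0.87% of probe sets were called higher. It kept its call with each of the 8 arrays left out in turn, at log2 differences of 1.10 to 1.40, and was 1.10 without irt1 shoot replicate 1 (limma adjusted p = 0.0139). The response to Fe withdrawal was also larger in shoots by the point estimate, by 0.70 ± 0.17 (SE), but missed the threshold (limma adjusted p = 0.0564). Its 95% interval was 0.32 to 1.08, and 1.42% of probe sets were called higher. It passed with array weights (0.0456), among probe sets with a mean level of at least 5 (0.0459) and in a model of only the 8 arrays compared (0.0444). The gap between irt1 and Fe-deficient wild type, taken in shoots minus roots, was 0.55 ± 0.17 (SE) and was not called (limma adjusted p = 0.31), where 0.0835% of probe sets were called higher. Without irt1 shoot replicate 1 it was 0.40 (limma adjusted p = 0.592). That contrast was added after the values were seen.

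Between organs, PYE differed little where Fe was supplied to wild type and was higher in shoots of irt1 and of wild type without Fe. In irt1 it averaged 7.05 in shoots and 5.90 in roots, a log2 difference of 1.15 ± 0.12 (SE; limma adjusted p = 6.09e-06), or 1 without irt1 shoot replicate 1 (8.19e-05). For wild type without Fe the means were 7.35 in shoots and 6.75 in roots, a difference of 0.60 ± 0.12 (SE; limma adjusted p = 0.0013). For wild type with Fe they were 5.10 in shoots and 5.20 in roots, a difference of -0.10 ± 0.12 (SE; limma adjusted p = 0.52; 95% interval -0.37 to 0.17). That difference was 0.05 in the other direction after a further quantile normalisation. Most probe sets differed between organs in each of these comparisons, with 52.5% called in irt1, 51.1% in wild type without Fe and 54.8% in wild type with Fe, so a call here does not set PYE apart. Whether roots and shoots were normalised together is not given in the sources used here.

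Ordered by level, the groups ran from wild-type shoots without Fe (7.35) through irt1 shoots (7.05), wild-type roots without Fe (6.75), irt1 roots (5.90) and wild-type roots with Fe (5.20) to wild-type shoots with Fe (5.10). Of the neighbours in that order, the first pair did not overlap between arrays, but its difference was not called, as given above. Next, irt1 shoots minus wild-type roots without Fe gave a log2 difference of 0.30 ± 0.12 (SE) that was not called either (limma adjusted p = 0.0584; 95% interval 0.03 to 0.57), a contrast added after the values were seen, for which 53.8% of probe sets were called in either direction. With 1 array left out it ranged from 0.15 without irt1 shoot replicate 1 (limma adjusted p = 0.389) to 0.45 without irt1 shoot replicate 2 (0.0139), the only array whose omission gave a call. The steps between wild-type roots without Fe and irt1 roots, and between irt1 roots and wild-type roots with Fe, were called, with the losses given above. The step between the 2 lowest groups, both Fe-supplied wild type, was not.

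In some comparisons where PYE rose, some markers of green tissue were called lower and some of root cells higher. Others of the same lists were not called. Of the listed loci, 3 of 10 shoot markers and 4 of 12 root markers had a named probe set. Loci without one, here and in the lists below, may still be read by probe sets that have no single gene name here. In roots, the level summed over the 3 shoot markers was 7.57 to 7.75 in irt1, 7.04 to 7.30 in wild type without Fe and 8.24 to 8.40 in wild type with Fe (log2), lowest where PYE was highest. In the same roots, the sum over the 4 root markers was 12.03 to 12.06 in irt1, 12.01 to 12.24 in wild type without Fe and 11.71 to 11.76 in wild type with Fe. In shoots, the shoot marker sum was 13.10 to 13.14 in irt1, 12.9 to 13.0 in wild type without Fe and 13.4 to 13.6 in wild type with Fe. The root marker sum in shoots was 5.66 to 5.77 in irt1, 5.61 to 5.77 in wild type without Fe and 6.08 to 6.15 in wild type with Fe. No marker was at 0, since array values have no true zero. Against Fe-supplied wild type, 2 of 3 shoot markers were called lower in each of the 4 main comparisons. They were PSAN and LHCB4.3 in shoots, and PSAN and RCA in roots. LHCB4.3 was not called in roots, with means of 4.75 in irt1 and 4.2 in both wild-type groups. In either direction 3.57% of all probe sets were called in irt1 shoots and 4.86% in shoots without Fe. In roots the shares were 3.4% in irt1 and 5.19% without Fe. The PSAN calls in irt1 shoots and irt1 roots were lost when the arrays of the organ were fitted alone (limma adjusted p = 0.0681 and 0.0632). Of the 4 root markers, XTH26 was called higher in irt1 roots, and XTH26 and EXPA18 in roots without Fe, with 0 called in shoots. EXPA7 and AT3G01190 were not called in any of the 4 comparisons. RCA stayed flat in shoots, with means of 12.65 in irt1, 12.55 in wild type without Fe and 12.6 in wild type with Fe. The RCA call in irt1 roots was lost in each of the 6 alternatives run for it, including the omission of any 1 array (limma adjusted p = 0.103 to 0.361), and the EXPA18 call was lost without any 1 array (0.0633 to 0.335). The part of these shifts in the PYE result was not tested.

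The proteins that PYE is known to pair with, or to act beside, were then described at the transcript level. Of 6 listed loci (subgroup IVc, bHLH121 and bHLH11), 5 were measured by a named probe set. In irt1 shoots 0 of these 5 were called, with a median log2 difference of 0.10 (all probe sets 0), against 3.57% of all probe sets called in either direction. In shoots without Fe 1 of 5 was called, with a median of 0.05 (all probe sets 0), against 4.86% of all. In irt1 roots 0 of 5 were called, with a median of 0 (all probe sets 0), against 3.4% of all. In roots without Fe 1 of 5 was called, with a median of -0.05 (all probe sets 0), against 5.19% of all.

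The member called in both organs without Fe was bHLH115, a subgroup IVc activator of the Fe-deficiency response. In shoots it stood at 8.4 and 8.2 without Fe and at 7.8 and 7.7 with Fe, a log2 difference of 0.55 ± 0.11 (SE; limma adjusted p = 0.017). In roots it stood at 9.6 and 9.7 without Fe and at 9.1 and 9.2 with Fe, a difference of 0.50 ± 0.11 (SE; limma adjusted p = 0.024). The groups did not overlap in either organ, but the rises were small beside those of PYE. Both calls were lost when the arrays of the organ were fitted alone (limma adjusted p = 0.133 in shoots and 0.054 in roots). The shoot call was lost without wild-type Fe-supplied shoot replicate 2 or Fe-deficient shoot replicate 1 (limma adjusted p = 0.103 and 0.16), and the root call without any 1 of the 4 arrays (0.0603 to 0.202).

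ILR3, a subgroup IVc factor that forms a repressing pair with PYE, stood at 9.1 and 9.3 in roots without Fe and at 8.7 and 8.8 in roots with Fe. Its log2 difference of 0.45 ± 0.12 (SE) missed the threshold (limma adjusted p = 0.0501). In shoots ILR3 was at 8.7 and 8.5 in irt1, 8.6 and 8.7 without Fe and 8.6 and 8.7 with Fe, and these groups overlapped. For bHLH104, another subgroup IVc factor, the 4 differences from Fe-supplied wild type lay between -0.05 and 0.10, and none was called. For bHLH34 they lay between -0.40 and 0.35, and for bHLH121 between -0.35 and 0.10, again with no call.

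Levels of these partners in shoots and roots were also set side by side. In wild type without Fe, bHLH121 was higher in shoots by 1.35 ± 0.13 (SE; limma adjusted p = 2.7e-06), while bHLH115, bHLH104 and ILR3 were lower in shoots by log2 differences of -1.35, -0.80 and -0.55. For bHLH34 the difference of 0.30 was not called. PYE was higher in shoots there by 0.60, and no test compared it with its partners.

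**Figure D3:**
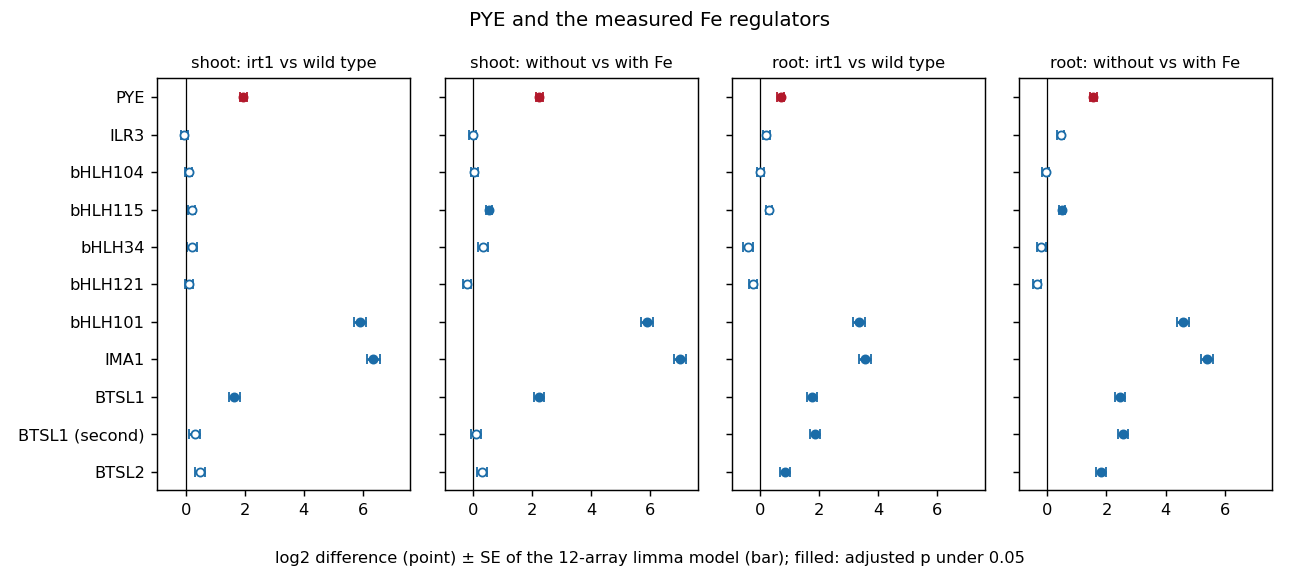
Log2 differences (points) with SE (bars) of PYE, in red, and of the measured Fe regulators, in blue, in the 4 main comparisons with Fe-supplied wild type; filled points were called. PYE lies at 1.95, 2.25, 0.70 and 1.55 from left to right, the subgroup IVc factors and bHLH121 between -0.40 and 0.55, and bHLH101 and IMA1 at 3.35 or above; BTSL1 has a row for each of its 2 probe sets.

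Other regulators of the response rose with PYE. The subgroup Ib factor bHLH101, which with FIT activates root Fe uptake genes, was the 1 locus of 5 in its list with a named probe set. It had log2 differences of 5.90 in irt1 shoots and 5.90 in shoots without Fe, and of 3.35 in irt1 roots and 4.6 in roots without Fe (SE 0.20 each; limma adjusted p at most 5.65e-06). Of the IMA peptides, which hold the BTS-type ligases back, IMA1 (AT1G47400) was the 1 locus of 3 with a named probe set. Its log2 differences were 6.35 in irt1 shoots, 7 in shoots without Fe, 3.55 in irt1 roots and 5.40 in roots without Fe (SE 0.21 each; limma adjusted p at most 5.6e-06). In Fe-supplied wild type bHLH101 stood at 3.0 to 3.7 and IMA1 at 2.8 to 3.6, below the array medians of 5.4 to 5.6. The sizes of their rises therefore rest on low signals. Like PYE, both were lower in irt1 roots than in Fe-deficient wild-type roots, bHLH101 by a log2 difference of -1.25 and IMA1 by -1.85 (limma adjusted p = 0.0109 and 0.00141). In shoots these differences were 0 for bHLH101 and -0.65 for IMA1 and were not called. The root call of bHLH101 was lost without Fe-deficient root replicate 1 or 2 or irt1 root replicate 2 (limma adjusted p = 0.0892 to 0.112), and that of IMA1 was kept without any 1 array (0.017 to 0.0287). When the root arrays were fitted alone, both calls were lost (limma adjusted p = 0.124 for bHLH101 and 0.0986 for IMA1). Without irt1 shoot replicate 1 the irt1 shoot differences were 5.70 for bHLH101 and 6.15 for IMA1, both called.

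Of 3 hemerythrin E3 ligase loci, BTSL1 and BTSL2 had named probe sets. These ligases act in roots on factors of the same response. BTSL2 rose in roots, by 1.80 ± 0.17 without Fe and by 0.85 ± 0.17 in irt1 (SE; limma adjusted p = 8.09e-05 and 0.0189), and its shoot differences of 0.30 and 0.50 were not called. On the shoot arrays BTSL2 stood at 4.0 to 4.8, below the array medians of 5.4 to 5.6, where a change can be missed. The irt1 root call of BTSL2 was lost without any 1 of its 4 arrays (limma adjusted p = 0.0973 to 0.16). Against Fe-deficient roots BTSL2 was lower in irt1 roots by a log2 difference of -0.95 (limma adjusted p = 0.0171), a call lost without Fe-deficient root replicate 2 or either irt1 root array (0.119 to 0.157). BTSL1 has 2 probe sets, which differ in shoots. The first stood at 5.3 and 5.1 in irt1 shoots, 5.7 and 5.9 in shoots without Fe and 3.3 and 3.8 in shoots with Fe. Both irt1 and Fe-deficient wild type were called higher, irt1 by a log2 difference of 1.65, or 1.55 without irt1 shoot replicate 1. The irt1 call was lost when the shoot arrays were fitted alone (limma adjusted p = 0.0723). The second stood at 3.8 and 3.4 in irt1 shoots, 3.6 and 3.2 in shoots without Fe and 3.3 on both arrays of shoots with Fe, with 0 calls. In roots without Fe both rose, by 2.45 and 2.55.

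The 9 listed genes known to be repressed by PYE or by PYE with ILR3, among them ZIF1, FRO3, NAS4 and the ferritin genes FER1, FER3 and FER4, had 0 loci with a named probe set and are not analysed here. The same holds for the 12 listed genes of Fe uptake and movement and for the 2 MYB factors. Of 5 further storage loci VTL3 and VTL4, relatives of the vacuolar Fe transporter VIT1, had named probe sets. Their differences in the 4 main comparisons lay between -0.35 and 0.15, with 0 calls. Of all probe sets 3.4% to 5.19% were called in either direction in these comparisons. Both genes stood at 3.9 to 5.0 on all arrays, below the array medians of 5.4 to 5.6, where a change can be missed.

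Genes whose pattern lay nearest to PYE were found by distance. For each probe set the mean of the organ was subtracted on each array, and the root mean square difference from PYE was taken over the 12 arrays (log2). The 8 nearest named probe sets were those of AT3G01350 (0.232), AT1G01570 (0.252), CDI (0.275), AT3G56360 (0.301), AT3G17770 (0.309), NET3A (0.327), the first BTSL1 probe set (0.364) and AT3G21600 (0.38). The 3 probe sets nearer than AT3G01350 have no single gene name here. CDI was described as a cadmium-induced gene, and NET3A belongs to the Networked family of actin-binding proteins. These genes were picked for their likeness over the same arrays, so their calls are a description. The choice depends on the measure. Ranking by Pearson correlation in place of the distance changed most of this list and of the shorter lists below, as given at the end.

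All 8 stood higher in irt1 shoots and in shoots without Fe, as the choice fixes. AT3G01350, the nearest, was at 6.6 and 6.4 in irt1 shoots, 6.9 and 6.7 in shoots without Fe and 4.4 and 4.3 in shoots with Fe. In roots it was at 6.6 and 6.7 in irt1, 6.9 and 6.9 without Fe and 5.9 and 6.0 with Fe. AT3G56360 was at 10.8 and 10.7 in irt1 shoots, 10.6 and 10.6 in shoots without Fe and 8.2 and 8.8 in shoots with Fe. Its root values were 9.9 and 9.7 in irt1, 10.0 and 10.1 without Fe and 8.2 and 8.5 with Fe. In both genes irt1 roots lay closer to Fe-deficient than to Fe-supplied wild-type roots. The same held for AT3G17770 and the first BTSL1 probe set. In AT1G01570, CDI, NET3A and AT3G21600 irt1 roots lay closer to the Fe-supplied ones. PYE in irt1 roots lay 0.70 above the Fe-supplied and 0.85 below the Fe-deficient ones. These differences between genes were not tested.

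Over the 8, the irt1 root difference ranged from -0.05 to 1.75 with a median of 0.48, and the root difference without Fe from 0.30 to 2.45 with a median of 0.90, against 0.70 and 1.55 for PYE. Their gap between irt1 and Fe-deficient wild-type roots ranged from -0.75 to -0.15, against -0.85 for PYE.

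With organ levels kept in the distance, the 4 nearest named probe sets were those of AT1G01570 (0.289), AT3G56360 (0.301), AT3G17770 (0.309) and CDI (0.317), all among the 8 above. The 4 nearest to the mirror image of PYE were those of AT1G68650 (0.159), AT5G59400 (0.249), AT5G51010 (0.253) and CHL (0.308), which encodes a chloroplast lipocalin, a protein that guards plastid membranes from oxidation. AT1G68650 was at 4.7 and 4.7 in irt1 shoots, 4.5 and 4.5 in shoots without Fe and 6.5 and 6.5 in shoots with Fe. Its root values were 6.5 and 7.0 in irt1, 6.1 and 6.1 without Fe and 7.9 and 7.6 with Fe, with irt1 between the wild-type groups as for PYE. CHL was at 7.1 and 7.3 in irt1 shoots, 6.8 and 6.9 without Fe and 8.7 and 9.0 with Fe.

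**Figure D4:**
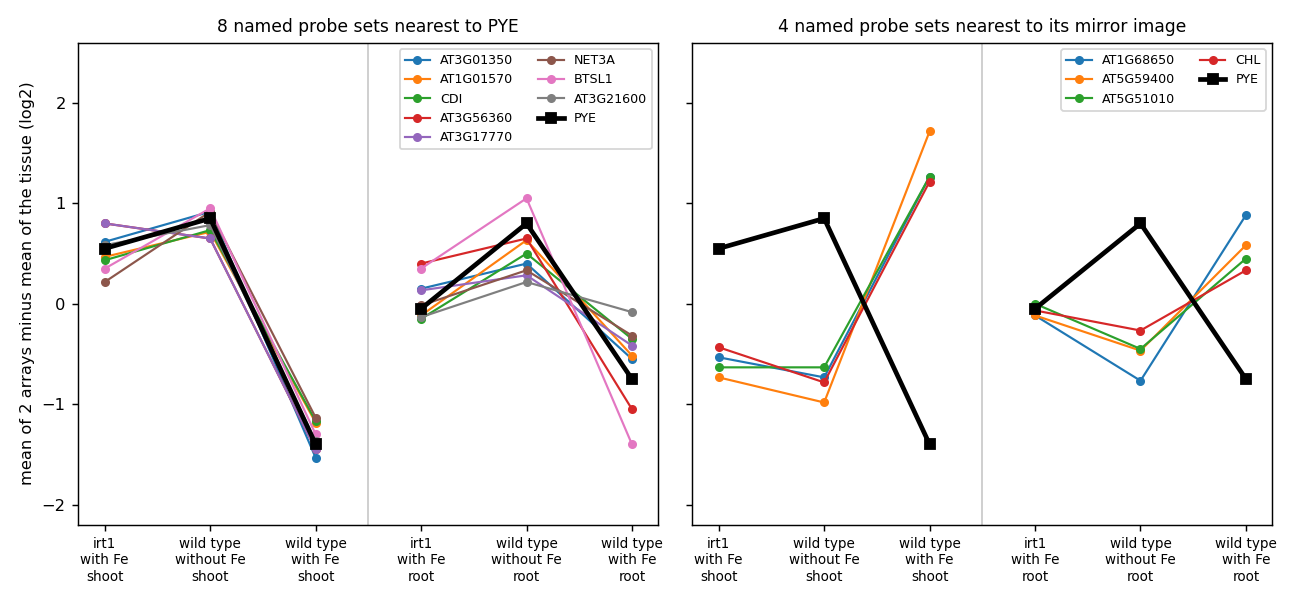
Mean of 2 arrays minus the mean of the organ (log2, vertical axis) for PYE in black and, in colours, the 8 nearest named probe sets (left panel) and the 4 nearest to its mirror image (right panel); lines join the groups of an organ. In shoots the left-hand lines follow PYE closely, and in roots they spread, with the difference without Fe between 0.30 and 2.45.

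The loci on each side of PYE in the RefSeq gene order were looked at after the files were seen. AT3G47650 showed 0 calls in the 4 main comparisons, with log2 differences from -0.25 to -0.05. AT3G47630 stood at 6.1 and 5.9 in irt1 shoots and at 5.6 and 5.3 in wild-type shoots with Fe, a difference of 0.55 ± 0.13 (SE; limma adjusted p = 0.0398). Its other 3 differences, 0.10 to 0.45, were not called, and the call was lost without irt1 shoot replicate 1 (limma adjusted p = 0.23) or wild-type shoot replicate 2 (0.199).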

How the data were processed

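The data are single-colour Affymetrix arrays of biotin-labelled RNA. The deposited log2 values were made by the authors with RMA, per the submitters' processing notes; its version is not given in the sources used here. Values ran from 1.9 to 13.5. Precision is limited by having 2 arrays a group. Of 22810 probe sets, 64 controls were left out. Gene names came from the platform annotation, updated through Entrez IDs to the RefSeq table of TAIR10.1: 13513 probe sets had 1 gene (13436 with a locus), 503 several and 8730 none listed.

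Groups and replicates came from the titles. limma 3.58.1 in R 4.3.3 fitted 1 mean per group to all 12 arrays (6 residual degrees of freedom; eBayes; Benjamini-Hochberg adjustment, two-sided). An exact permutation test of 2 against 2 arrays cannot give a p below 0.333 and was not run. The model and the distance ranking were tested on simulated data. Members and lists were chosen with earlier results of these data known. Named genes are PYE, listed loci with a named probe set, and the 8, 4 and 4 nearest. Alternatives were a replicate block, smaller models, trend, robust and weighted fits, renormalisation, a filter and leaving out arrays. Same-numbered replicates had deviations correlating from -0.09 to 0.20 over 15 pairs of groups, with 8 above 0.1 and 2 below 0. The main model did not take the numbers as pairing, and these values do not exclude a shared replicate component. Sequences of the PYE promoter and protein were not used here.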

Additional observations from a re-analysis of the deposited data

Results flagged for a closer look

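Differences between organs that passed the test were found for PYE and for several genes described beside it. All are log2 differences of a response, shoot minus root, from the 12-array limma model. The irt1 effect on PYE was larger in shoots by 1.25 (adjusted p = 0.00374), in the same direction in both organs. Among regulators, bHLH101 had 2.55 for irt1 and 1.30 for Fe withdrawal, and IMA1 had 2.80 and 1.6. Both stood low in Fe-supplied wild type, where bHLH101 differed between shoots and roots by -0.55. BTSL2 had -1.5 for Fe withdrawal. The second BTSL1 probe set had -1.55 for irt1 and -2.45 for Fe withdrawal, while the first, at -0.10 and -0.20, was not called. In shoots BTSL2 stood at 4.0 to 4.8 and the second BTSL1 probe set at 3.2 to 3.8, below the array medians of 5.4 to 5.6. For these probe sets a weaker shoot response and a shoot signal too low to read cannot be told apart.

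Among the genes nearest to PYE, AT3G01350 had 1.45 for irt1 and 1.5 for Fe withdrawal, AT3G17770 had 1.70 and 1.40, NET3A had 1.05 and 1.40, AT3G21600 had 2.00 and 1.85, and CDI had 1.40 for irt1. Among those nearest to its mirror image, AT5G59400 had -1.75 and -1.65, AT5G51010 had -1.45 and -1, and CHL had -1.25 and -1.40. The genes nearest to PYE or to its mirror image were picked for that likeness over the same arrays. Their signs here follow largely from the choice, so their calls are a description. Leaving out 1 of the 8 arrays of a contrast ended some calls of the regulators and of these genes. The Fe-withdrawal call of bHLH101 was lost without any 1 of them (adjusted p = 0.0529 to 0.155), that of IMA1 without 4 of them (up to 0.086) and that of AT5G51010 without 5 (up to 0.0884). The irt1 call of CDI was lost without 6 (up to 0.0919), that of NET3A without 6 (up to 0.149) and that of the second BTSL1 probe set without 1, irt1 root replicate 1 (0.0575).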

How the results depend on the processing

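Of 162 alternative values over 13 PYE contrasts, 145 kept the direction and the side of the threshold. With limma fitted to the compared groups alone, calls were lost for PYE in irt1 shoots (1.95, adjusted p = 0.215), Fe-deficient shoots (2.25, 0.0733) and irt1 roots (0.70, 0.116). They were also lost in Fe-deficient roots (1.55, 0.0908) and in irt1 against Fe-deficient roots (-0.85, 0.218). Fewer arrays estimate the spread in these fits, and the cause of the losses was not tested. The model of the 6 root arrays lost irt1 roots (0.70, 0.0564) and irt1 against Fe-deficient roots (-0.85, 0.0819). The Fe-withdrawal difference between organs (0.70) passed in the model of only the groups compared, with array weights and with the level filter (adjusted p 0.0444, 0.0456 and 0.0459). The wild-type organ difference with Fe turned from -0.10 to 0.0458 with quantile normalisation repeated, and was not called either way.

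With 1 array left out, where a lone array is assumed to vary like the other groups, log2 differences ranged from 0.60 to 0.80 for irt1 roots, from -0.95 to -0.75 for irt1 against Fe-deficient roots, and from 0.15 to 0.45 for irt1 shoots against Fe-deficient roots. The replicate block changed no call of PYE (root irt1 0.70, adjusted p = 0.0105; Fe withdrawal between organs 0.70, 0.0544). Of 98 calls of the other named genes, 63 held in every alternative run for them (replicate block, model of the organ, leaving out arrays), and 0 of 98 changed direction.

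Ranking by Pearson correlation kept 3 of the 8, 1 of the 4 and 1 of the 4 mirror-image genes, and 4 of the 8 were among the 8 nearest of all probe sets, named or not. The cause of these changes was not tested.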
